A study of Mus musculus with 24 samples.

Results

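The proteasome subunit genes were taken as all probes of the array whose gene name is Psma, Psmb, Psmc, Psmd, Psme or Psmf followed by digits alone. Of 41174 probes with 27962 gene names, 63 probes for 42 genes met this rule. The probe with the highest mean intensity was used for each gene, and 16 genes had more than 1 probe. No probe carried the name Psme2 or Psmb11, and these genes were not analysed here. The 42 genes held 7 alpha and 7 constitutive beta subunits of the 20S core, the 3 immunosubunits Psmb8, Psmb9 and Psmb10, the germ cell subunit Psma8, 9 subunits of the 19S base, 8 of the 19S lid, 3 chaperones of base assembly and 4 activators or inhibitors of the core.

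Colon and liver were taken from 12 female C57BL/6 mice at 12 weeks of age. All of their dams had received feed rich in fat and poor in selenium and folate (HF-low) before mating, through gestation and in lactation. At weaning, 6 mice stayed on this diet (HF-low-low) and 6 were moved to feed as rich in fat but adequate in both nutrients (HF-low-suf), so that no group lacked the maternal low diet or the fat. Each of the 24 arrays held RNA of 1 tissue of 1 mouse in Cy3, hybridised against RNA pooled from both organs of all mice in Cy5, and values are log2 ratios of the sample to this pool. Whole tissues were measured, so fewer cells of a type and less RNA per cell cannot be told apart.

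The proteasome is the protease that degrades ubiquitin-tagged proteins. Its barrel-shaped 20S core is closed at both ends by rings of alpha subunits, and the beta rings between them carry the catalytic sites in Psmb5, Psmb6 and Psmb7. The 19S particle on the end of the core recognises ubiquitin through its lid and base and unfolds substrates with the Psmc ATPases. In immune cells, and in other cells exposed to interferon gamma, Psmb8, Psmb9 and Psmb10 take the places of Psmb5, Psmb6 and Psmb7, and this immunoproteasome favours peptides for presentation by class I molecules. In the colon it is best known from inflamed mucosa, and in the liver from viral hepatitis.

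The probes of the 6 catalytic subunits are shown because the comparison of each immunosubunit with its constitutive counterpart rests on probes that tell these related genes apart. Each is a 60-base sequence of the array, written 5′ to 3′, and the capitals mark the longest run that the probe shares with that of its counterpart.
Psmb5: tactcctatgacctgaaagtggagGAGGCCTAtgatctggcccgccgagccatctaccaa
Psmb8: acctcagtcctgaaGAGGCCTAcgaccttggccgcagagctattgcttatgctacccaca
Psmb6: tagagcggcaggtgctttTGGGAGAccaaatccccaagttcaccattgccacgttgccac
Psmb9: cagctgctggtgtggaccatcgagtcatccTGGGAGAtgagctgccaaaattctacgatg
Psmb7: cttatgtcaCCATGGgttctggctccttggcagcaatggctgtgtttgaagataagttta
Psmb10: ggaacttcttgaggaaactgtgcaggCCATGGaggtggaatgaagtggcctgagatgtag
The longest shared run was 8 bases for Psmb5 and Psmb8, 7 for Psmb6 and Psmb9 and 6 for Psmb7 and Psmb10. At the best ungapped offset, 31 of 50 aligned bases were identical between the probes of Psmb5 and Psmb8, against 27 of 48 for Psmb6 and Psmb9 and 23 of 56 for Psmb7 and Psmb10. In the mm7 coordinates of the files, the Psmb5 probe lies at chr14:49480764-49480823, Psmb6 at chr11:70609086-70609145, and Psmb7 at chr2:38620757-38641176, a span that is longer than the probe and so crosses at least 1 intron. Psmb10 lies at chr8:104534632-104534691. Psmb9 at chr17:32262147-32262206 and Psmb8 at chr17:32280668-32280727 are 18461 bases apart on opposite strands, in the class II region of the major histocompatibility complex.

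The share of spots with a Cy3 signal well above background was 26.1% on the lowest array and 71.9% on the highest. On 2 arrays the reference channel was brighter than on the others, with a median Cy5 signal of 1031 for colon HF-low-suf replicate 5 and 739 for liver HF-low-suf replicate 4 against 300.2 to 430.9 elsewhere. The median intensity over both channels was 9.00 and 10.2 on these arrays, and also high on liver HF-low-low replicate 6 (10.1) and liver HF-low-suf replicate 5 (9.31), against 7.71 to 8.30 on the others. The tissue labels held against markers, since all 4 hepatocyte markers measured were higher in liver, by 4.35 to 6.07 on the log2 scale, and all 5 colon epithelium markers were higher in colon, with differences from -5.80 to -2.07. Of the members, 41 were well above background on at least 23 of the 24 arrays. Their mean intensities (the average of log2 Cy3 and log2 Cy5) ran from 9.57 to 15.4, against a median of 8.22 over all probes. The exception was Psma8, described last among the tissue differences. Precision is limited by how many arrays there were.

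Genes for nearly all parts of the constitutive proteasome had higher relative abundance in liver than in colon, while Psmb10 and the activators Psme1 and Psme3 were higher in colon. Of the 42 members, 37 were higher in liver and 3 in colon by limma with a Benjamini-Hochberg adjusted P below 0.05, and 2 were not called. Over all 41174 probes the same call was made for 18.1% in favour of liver and 17.8% in favour of colon, and among the 20154 probes well above background on at least 6 arrays for 31.6% and 32.8%. The median liver minus colon log2 difference was 0.58 over the members and 0.02 over all probes tested. The median member value of an array lay between -0.39 and -0.18 in the 12 colons and between 0.07 and 0.46 in the 12 livers, so that each liver stood above each colon. A total of 23 members were higher in liver than in colon of the same animal in all 12 mice. Another 3 were lower in all 12. The share of all probes with 1 direction in all mice was not computed, so these counts have no comparison. For 12 members all livers were above all colons (5.97% of all probes). For 2 members all livers were below all colons (6.49% of all probes). Both percentages refer to all 41174 probes and were not computed for the 20154 brighter ones, to which nearly all members belong.

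The number of calls depended on how the dyes were normalised. The members are bright, and global loess sets each probe against probes of like intensity on the same array. Where each array was only centred on its median, 11 members were called higher in liver and 3 in colon, the member median was 0.24, and 36 of 42 differences were above 0 against 39 of 42 after loess. With that setting the 1639 probes at least as bright as the median member had a median difference of -0.26, against 0.01 after loess. Of the well measured probes 15.9% were then called higher in liver and 39% higher in colon, against 26.2% of the members higher in liver. With the Cy3 channel alone, 28 members were called higher in liver and 3 in colon, with a median of 0.48, where 30.4% of the well measured probes were higher in liver. Within the first scan day 23 members were higher in liver and 2 in colon, and within the second 31 and 3. Within HF-low-suf the counts were 30 and 3, and within HF-low-low 28 and 3. In these 4 subsets between 23% and 25.1% of the well measured probes were called higher in liver, against 54.8% to 73.8% of the members.

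**Figure D1:**
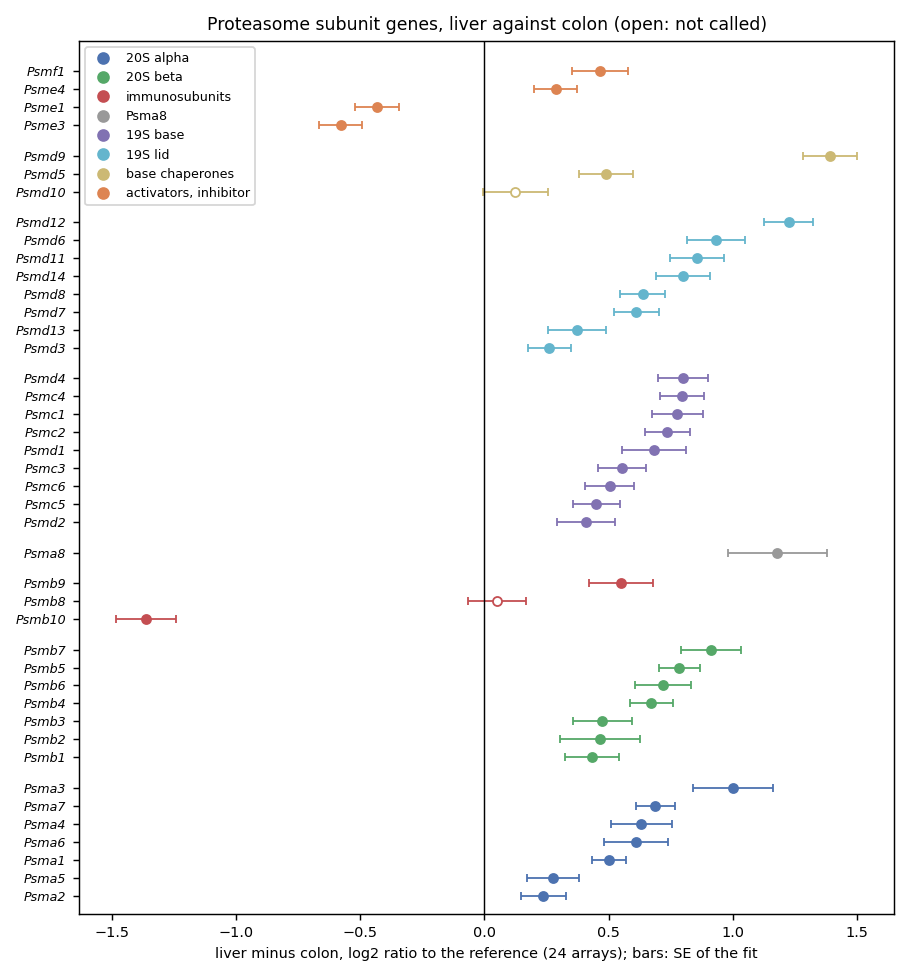
Liver minus colon difference of the log2 ratio to the reference (x axis) for each of the 42 proteasome subunit genes (y axis), grouped by role. Points are estimates over 24 arrays with the SE of the fit, and open points were not called. All alpha, constitutive beta, base and lid subunits lie to the right of 0, and Psmb10, Psme1 and Psme3 lie to the left.

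The constitutive catalytic subunits were all higher in liver. For Psmb5, which carries the chymotrypsin-like site, log2 ratios ran from -0.26 over a median of 0.06 to 0.18 in colon and from 0.52 over 0.83 to 1.16 in liver. The groups did not overlap, and the difference of 0.78 ± 0.08 (SE, 12 mice) had an adjusted P of 1.03e-08 in limma. For Psmb6, the caspase-like site, the values were -0.47, -0.16 and 0.36 (lowest, median and highest) in colon and 0.30, 0.62 and 0.91 in liver. Only the top of the colon range reached the lowest livers, and the difference was 0.72 ± 0.11 (limma adjusted P = 5.59e-06). For Psmb7, the trypsin-like site, colons had -1.31, -0.69 and -0.23 and livers -0.24, 0.29 and 0.56. The ranges met at their ends, with a difference of 0.91 ± 0.12 (limma adjusted P = 4.83e-07). All 3 were higher in liver in 12 of 12 mice, which gave p = 0.000488 in the two-sided exact sign-flip permutation test, the smallest that 12 pairs allow. With median centring alone the difference of Psmb6 was 0.48 and was not called (limma adjusted P = 0.0601).

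The rest of the 20S core followed the same direction. All 7 alpha subunits were called higher in liver, with a median difference of 0.61 and a range from 0.24 for Psma2 to 1.0 for Psma3, and so were all 7 constitutive beta subunits, with a median of 0.67 and a range from 0.43 for Psmb1 to 0.91 for Psmb7. Psma3, a subunit of the alpha ring, had -1.45, -0.66 and -0.24 in colon and -0.58, 0.42 and 0.90 in liver (lowest, median and highest). Its ranges overlapped between animals, but the liver was the higher tissue in all 12 mice and the difference was 1.0 ± 0.16 (limma adjusted P = 1.12e-05). With median centring 5 of the 7 alpha and 5 of the 7 constitutive beta subunits were not called, and those still called were Psma3, Psma7, Psmb5 and Psmb7. After loess, the calls of Psma2, Psma5 and Psmb2 were lost where single mice were left out. With the mouse as a block Psma2 was no longer called (limma adjusted P = 0.0582), and without the 2 mice with a bright reference array Psma2, Psma5 and Psmd3 were not, which left 34 members higher in liver. Without HF-low-low mouse 6, 36 members were higher in liver and 3 in colon.

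In the 19S particle, all 9 base and all 8 lid subunits were called higher in liver. With median centring most of these calls were lost. In the base these were Psmc2, Psmc3, Psmc5, Psmc6, Psmd1, Psmd2 and Psmd4, and in the lid Psmd3, Psmd7, Psmd8, Psmd13 and Psmd14. The base differences ran from 0.41 for Psmd2 to 0.80 for Psmd4, a ubiquitin receptor, with a median of 0.68. Those of the lid ran from 0.26 for Psmd3 to 1.22 for Psmd12, a scaffold subunit, with a median of 0.72. Psmd12 had log2 ratios of -1.01, -0.72 and -0.29 in colon and 0.17, 0.56 and 0.88 in liver (lowest, median and highest). No colon reached a liver, and its difference of 1.22 ± 0.10 (limma adjusted P = 7.27e-11) was the largest by main probe among the subunits of the assembled particle. Both dimmer probes of Psmd12 gave like values, 1.33 and 1.09. Psmd6, another scaffold of the lid, had a difference of 0.93 ± 0.12 (limma adjusted P = 2.21e-07), from -1.07, -0.74 and -0.16 in colon to -0.30, 0.25 and 0.77 in liver. The probes of Psmc6, a base ATPase, agreed in direction but not in size, with 0.51 for the brighter and 1.46 for the dimmer.

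The 3 chaperones that help to assemble the base differed among themselves. Psmd9 had the largest difference of the members by main probe, 1.39 ± 0.11 (limma adjusted P = 3.01e-11), with 0.09, 0.26 and 0.40 in colon and 0.84, 1.76 and 2.06 in liver (lowest, median and highest). Every liver was above every colon, and the second probe gave 0.85. Psmd5 was higher in liver by 0.49 ± 0.11 (limma adjusted P = 0.000593), but was not called with median centring or within the first scan day (0.32, limma adjusted P = 0.140). Psmd10, also known as the oncoprotein gankyrin, was not called, with a difference of 0.12 and a 95% interval from -0.14 to 0.39, and its ranges of -0.45 to 0.66 in colon and -0.10 to 0.84 in liver overlapped in large part. It was below 0 with median centring (-0.28) and within the second scan day (-0.07).

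Over the genes with several probes, 20 of the 21 further probes had the sign of the main probe and 15 were called, all 15 in the same direction. Of these 15, the second Psmc2 probe was well above background on 0 of 24 arrays and the second Psmd4 probe on 6. The odd one was the dimmest probe of Psmf1, with -0.04. For Psmd11, a lid subunit at 0.85 by its main probe, the second probe was well above background on no array and gave 0.09.

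The regulators that cap the core were split. Psme1, the alpha subunit of the interferon-inducible activator PA28, had -0.40, -0.22 and -0.02 in colon and -0.96, -0.63 and -0.24 in liver (lowest, median and highest). The ranges overlapped, but the colon was higher in 12 of 12 mice and the liver minus colon difference was -0.43 ± 0.09 (limma adjusted P = 0.000283). Within the first scan day Psme1 was at -0.38 and not called (limma adjusted P = 0.110). Psme3, which forms the nuclear activator PA28 gamma, had -1.25, -1.12 and -1.0 in colon and -2.11, -1.70 and -1.29 in liver. These ranges did not overlap, and the difference was -0.58 ± 0.09 (limma adjusted P = 4.30e-06). Psme4, the activator PA200, was higher in liver by 0.29 ± 0.09 (limma adjusted P = 0.00887), in 11 of 12 mice, and Psmf1, the inhibitor PI31, by 0.47 ± 0.11 (limma adjusted P = 0.00146), in 10 of 12 mice. The small difference of Psme4 was 0.03 with median centring and 0.06 with the Cy3 channel alone, without a call in either. Psme4 was also not called within the first scan day (0.20, limma adjusted P = 0.449). The same held within HF-low-suf (0.25, limma adjusted P = 0.144) and within HF-low-low (0.33, limma adjusted P = 0.127). Psmf1 was at 0.12 with median centring (limma adjusted P = 0.727), and was not called within the second scan day (0.39, limma adjusted P = 0.104) or within HF-low-suf (0.38, limma adjusted P = 0.0701).

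The immunosubunits did not follow the constitutive core, nor one another. Psmb10, the replacement of Psmb7, had -0.16, 0.36 and 0.56 in colon and -1.59, -1.13 and -0.33 in liver (lowest, median and highest). All livers lay below all colons, and the difference of -1.36 ± 0.12 (limma adjusted P = 4.57e-10), 2.57-fold higher in colon, was the largest in that direction among the members. Psmb8, the replacement of Psmb5, had -1.72, -1.40 and -0.98 in colon and -1.66, -1.31 and -0.73 in liver. The tissues overlapped from -1.66 to -0.98, 7 of 12 mice were higher in liver, and the difference of 0.05 had a 95% interval from -0.19 to 0.29 (limma adjusted P = 0.808). A second Psmb8 probe gave 0.10, also without a call, whereas with median centring the value was -0.31 (limma adjusted P = 0.183). Psmb9, the replacement of Psmb6, had -2.33, -1.82 and -1.19 in colon and -1.61, -1.35 and -0.61 in liver. The ranges overlapped, yet the liver was higher in 12 of 12 mice, by 0.55 ± 0.13 (limma adjusted P = 0.00107). This difference was not called with median centring, at 0.19 (limma adjusted P = 0.578), within the second scan day, at 0.50 (limma adjusted P = 0.0652), or within HF-low-low, at 0.46 (limma adjusted P = 0.108). Without the 2 mice with a bright reference array, the differences of Psmb8, Psmb9 and Psmb10 were -0.017, 0.49 and -1.42.

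**Figure D2:**
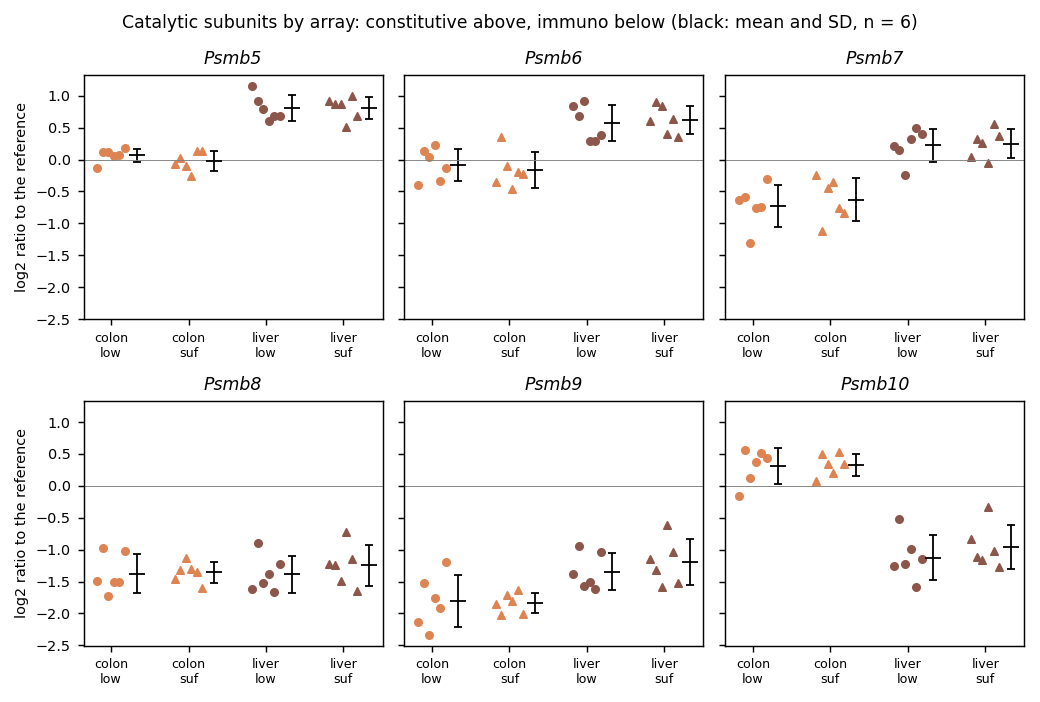
Log2 ratio to the reference (y axis) on each array for the constitutive catalytic subunits (upper row) and the immunosubunits that replace them (lower row), by tissue and diet (x axis, low for HF-low-low and suf for HF-low-suf). Points are mice, with mean and SD of 6 beside them. Psmb10 is above 0 in nearly all colons and below 0 in all livers, opposite to Psmb7 above it.

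Each immunosubunit was then set against its counterpart on the same array, as a difference of log2 ratios to the common pool. It does not compare the amounts of both mRNAs. Psmb10 minus Psmb7 was 1.0 ± 0.41 (SD, n = 12) in colon and -1.28 ± 0.49 in liver, so it was above 0 in all 12 colons and below 0 in all 12 livers. Within a mouse it was lower in liver by a mean of 2.27, given as -2.27 ± 0.74 (SD, n = 12), with a range from -3.34 to -0.82. Psmb8 minus Psmb5 was -1.39 ± 0.27 in colon and -2.12 ± 0.38 in liver, and lower in liver in all 12 mice, with a mean difference of -0.73 ± 0.34 and a range from -1.42 to -0.21. Psmb9 minus Psmb6 was -1.70 ± 0.39 in colon and -1.87 ± 0.43 in liver, and lower in liver in 8 of 12 mice, with a mean difference of -0.17 ± 0.32. The first and second of these pairs moved in 1 direction in all animals, while the third did not exceed its spread.

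**Figure D3:**
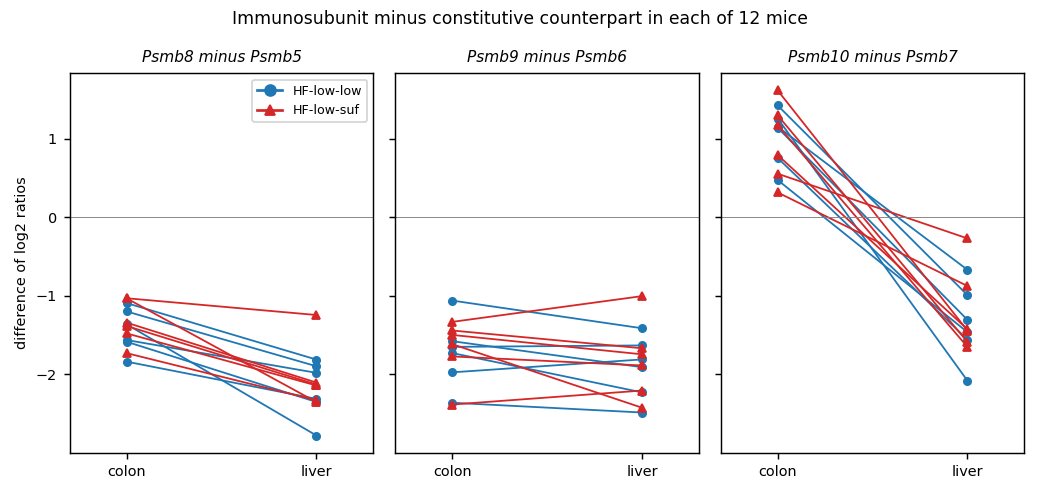
Log2 ratio of each immunosubunit minus that of its constitutive counterpart on the same array (y axis) in colon and liver (x axis). Each line is 1 of 12 mice. All lines fall from colon to liver for Psmb8 minus Psmb5 and for Psmb10 minus Psmb7, which falls by a mean of 2.27, and 8 of 12 fall for Psmb9 minus Psmb6.

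Immune cells express the immunosubunits, so their markers were read beside these values. Of 12 lymphocyte markers, 4 were called higher in liver and 1, the joining chain gene Igj, higher in colon, and of 8 macrophage and dendritic cell markers 2 were higher in liver. The mean log2 ratio of the lymphocyte list ran from -0.93 to -0.24 over the colons and from -0.78 to -0.15 over the livers, and that of the macrophage and dendritic cell list from -1.24 to 0.33 and from -1.0 to 1.13. All 12 lymphocyte genes were on the array, but in some arrays as few as 3 were well above background, and Cd8a was so in 3 of 12 colons and no liver. All 5 smooth muscle markers were higher in colon, with a median difference of -4.07. Of 5 skeletal muscle and 5 pancreas markers, 3 each were called higher in liver, with list medians of 0.78 and 0.95. Among the called pancreas markers, Pnlip was well above background in 1 of 12 colons and 2 of 12 livers, and Prss2 in 3 and 5. All 4 adipose markers were also called higher in colon, from probes that were often near background in liver, with Lep well above it in 0, Adipoq in 1, Plin in 2 and Cfd in 6 of 12 livers. The part of these cells in the difference of the immunosubunits was not tested.

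Psma8, the alpha subunit of germ cells, was well above background on none of the 12 colon arrays and on 4 of the 12 liver arrays. Its value in colon is therefore a bound only. With colon signals raised to the detection limit, its mRNA was at least 1.63-fold higher in liver if the liver signals are taken as measured. The limma adjusted P of 2.15e-05 belongs to the measured log2 difference of 1.18 and not to this bound. The measured mean log2 signals were 8.31 in liver and 7.32 in colon, set against a colon limit of 7.60, and the liver mean includes the livers in which the probe was not well above background.

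Genes that assemble, feed or control the proteasome were read from a fixed list, of which 21 of 27 names were on the array. By the call used for the members, 7 were higher in liver, 5 were higher in colon and 9 were not called, with a median of 0.06. The highest were Ddi2, a protease that activates Nfe2l1, at 2.56 ± 0.11, Adrm1, a ubiquitin receptor of the base, at 1.23 ± 0.10, and Rad23b, which carries ubiquitinated proteins to the proteasome, at 0.88 ± 0.08. Among the lowest were Nfe2l2, the factor of the antioxidant response, at -1.11 ± 0.13, and Rps27a, which encodes ubiquitin fused to a ribosomal protein, at -0.79 ± 0.10. Nfe2l1, the factor that raises proteasome genes when the protease is inhibited, was also lower in liver, at -0.57 ± 0.09 (limma adjusted P = 6.75e-06), and is named here after its value was seen.

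Of 20 genes of interferon signalling and class I presentation, 17 were on the array, and 5 were higher in liver, 9 higher in colon and 3 not called, with a median of -0.25. Among all well measured probes 31.6% and 32.8% were called in these directions, and whether either list departs from these shares was not tested. Among the highest were B2m, the light chain of class I molecules, at 1.52 ± 0.14, and the interferon-activated factor Stat2, at 0.92 ± 0.15. The lowest were both chains of the interferon gamma receptor, Ifngr1 at -2.51 ± 0.12 and Ifngr2 at -2.02 ± 0.13, and the factor Irf8 at -1.71 ± 0.14. Tap1, a chain of the peptide transporter and the neighbour of Psmb9, was higher in liver by 0.78 ± 0.15 (limma adjusted P = 0.000166), from a probe well above background on 9 of 12 arrays of each tissue. It too is named after its value was seen.

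**Figure D4:**
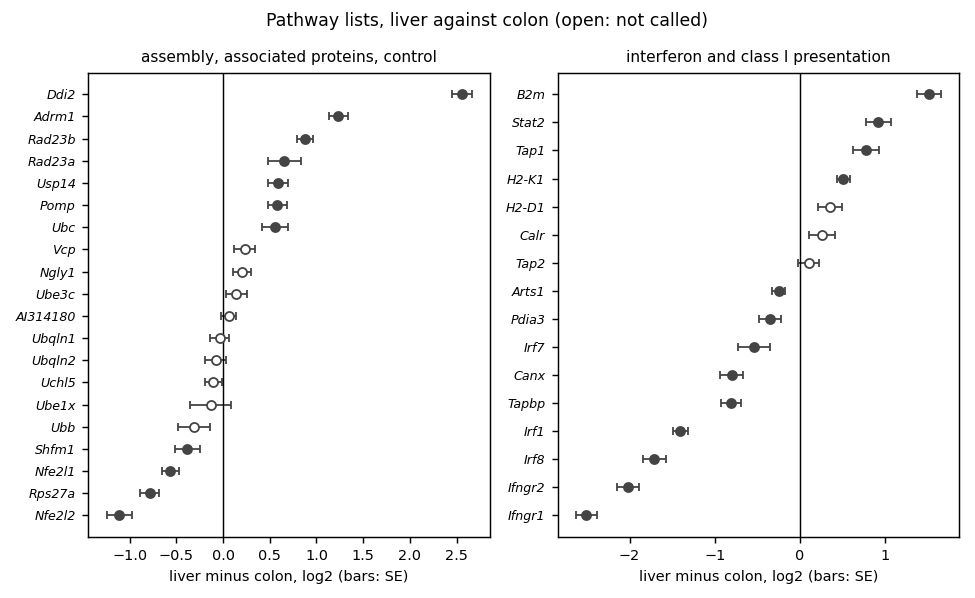
Liver minus colon difference of log2 ratios (x axis) for genes of proteasome assembly, associated proteins and control (left) and of interferon signalling and class I presentation (right), one gene per row. Bars are SE and open points were not called. Ddi2 at 2.56 and Ifngr1 at -2.51 mark the highest and lowest points shown.

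RefSeq promoters (GRCm38.p6, 250 bases before to 50 after the start) were given for 35 of the 42 members. They are shown for Psmb9, because it shares its promoter with Tap1 and both were higher in liver, and for Psmb5, Psmb6 and Psmb8, whose windows hold a short motif of a stress or interferon factor. The starts of Psmb9 and Tap1 are divergent and 225 bases apart. The stretch between them is written on the strand of Tap1, with CCAAT and GC boxes (GGGCGG) of either strand in capitals (chr17:34187331-34187555).
Psmb9 and Tap1: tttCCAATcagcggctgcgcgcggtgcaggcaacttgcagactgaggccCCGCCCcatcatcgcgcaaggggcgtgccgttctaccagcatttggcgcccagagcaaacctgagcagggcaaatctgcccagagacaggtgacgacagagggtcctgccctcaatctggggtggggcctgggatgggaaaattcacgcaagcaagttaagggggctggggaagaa
In the 120 bases before the start, capitals mark TGACNNNGC, the core of the antioxidant response element, in Psmb5 (chr14:54617996-54618115, minus strand) and Psmb6 (chr11:70525237-70525356, plus strand), and TTCNNNGAA, the core of the gamma-activated site, in Psmb8 (chr17:34198075-34198194, plus strand).
Psmb5: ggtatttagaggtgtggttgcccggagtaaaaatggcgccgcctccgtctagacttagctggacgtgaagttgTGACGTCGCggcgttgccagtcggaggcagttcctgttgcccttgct
Psmb6: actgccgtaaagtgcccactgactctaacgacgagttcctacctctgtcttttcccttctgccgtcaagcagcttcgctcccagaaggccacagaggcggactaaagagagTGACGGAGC
Psmb8: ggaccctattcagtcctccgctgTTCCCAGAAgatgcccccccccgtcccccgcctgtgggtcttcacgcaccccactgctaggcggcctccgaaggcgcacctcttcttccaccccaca
On either strand, TGACNNNGC was in 6 of the 35 member windows (17.1%), among them Psmd9, Psmd12, Psmc6 and Psme4, and in 12.4% of all 32851 windows. TTCNNNGAA was in Psmb8 and Psmd2 (5.71%, against 8.3% of all windows), and the core of the interferon-stimulated response element (GAAA repeated after a gap of 2 bases) was in Psmb3, Psmd4, Psmd9 and Psme1 (11.4%, against 3.44%). GGGCGG was in 21 members (60%, against 35.7%) and CCAAT in 13 (37.1%, against 37.4%). A match describes letters and is not evidence of a bound site.

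Adequate selenium and folate after weaning was not followed by a called change of any proteasome subunit gene in either tissue. Differences are HF-low-suf minus HF-low-low, so a positive value means higher in the supplemented mice, with the sign taken from the labelled dyes. The probes for which the study lists fold changes, none of them of these genes, had mostly the opposite sign here. With the diet sign turned, the members named highest below would be the lowest. The hepatocyte and colon epithelium markers went with these dyes, so such a turn would concern the diet contrast and not the tissue differences. In colon, by an unadjusted P below 0.01 and a fold above 1.5 in limma, 0 of 42 members and 0.168% of all probes were called. In liver it was 0 of 42 members and 0.117% of all probes. After Benjamini-Hochberg adjustment no probe passed in either tissue, and at an unadjusted P below 0.05 there were 0 of 42 members in each, against 2.98% of all probes in colon and 2.13% in liver. The median difference of the members was -0.00 in colon and 0.02 in liver, against -0.01 and 0.01 for all probes, and 21 and 25 of 42 members were above 0, or 21 and 17 with the sign turned. Of all 41174 probes, 19900 were above 0 in colon and 21161 in liver. With median centring the colon median was 0.15.

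**Figure D5:**
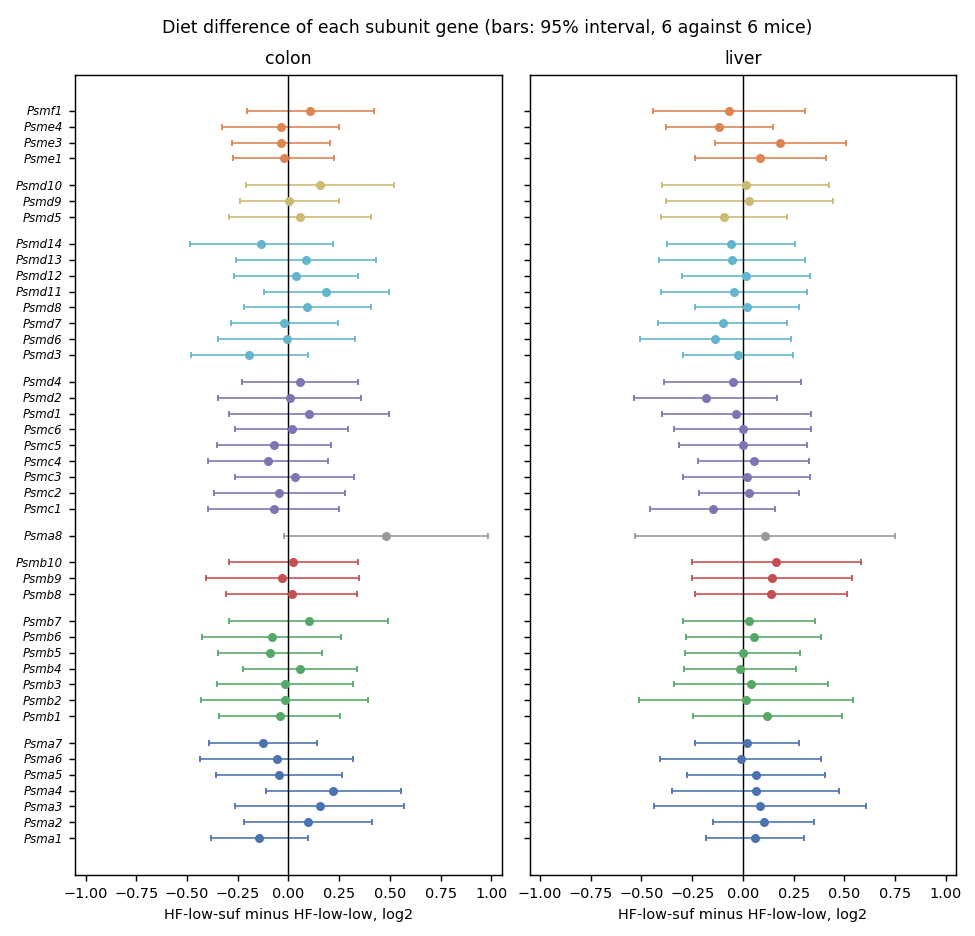
HF-low-suf minus HF-low-low difference of log2 ratios (x axis) of the 42 subunit genes (y axis) in colon (left) and liver (right), with 95% intervals from limma over 6 against 6 mice. All intervals include 0, and the widest, that of Psma8, belongs to a probe near background.

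In colon the highest diet differences among the well measured members were those of Psma4, at 0.22 ± 0.16 (SE, 6 mice per diet), Psmd11 at 0.19 ± 0.15, Psmd10 at 0.16 ± 0.17, Psma3 at 0.15 ± 0.20 and Psmf1 at 0.11 ± 0.15. The lowest were Psmd3 at -0.19 ± 0.14, Psma1 at -0.14 ± 0.11, Psmd14, the deubiquitinase of the lid, at -0.13 ± 0.17, Psma7 at -0.13 ± 0.13 and Psmc4 at -0.10 ± 0.14. None exceeded 1.5 SE. Psma1 had -0.50, -0.38 and -0.29 in HF-low-low and -0.61, -0.55 and -0.42 in HF-low-suf (lowest, median and highest). Its groups overlapped in part, and p = 0.0130 was obtained by exact permutation (two-sided) of 12 mice, the lowest of 84 such tests over members and tissues, whereas limma, which shares the spread of all probes, gave P = 0.219 (adjusted P = 1.0).

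The catalytic subunits of the colon had diet differences within 0.10 of 0, and over the alternatives they ran from -0.21 for Psmb6 to 0.26 for Psmb7 without a call. Psmb5, Psmb6 and Psmb7 had diet differences of -0.09 ± 0.12, -0.08 ± 0.16 and 0.10 ± 0.18, and Psmb8, Psmb9 and Psmb10 had 0.02 ± 0.15, -0.03 ± 0.18 and 0.02 ± 0.15. For Psmb8 the 95% interval ran from -0.31 to 0.34. The regulators Psme1, Psme3 and Psme4 were at -0.02 ± 0.12, -0.04 ± 0.11 and -0.04 ± 0.14. Psma8 was well above background on no colon array, so no diet difference is given for it. It was the 1 member that passed the study's rule without HF-low-low replicate 4 and within the first scan day, from signals near background.

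In liver the 3 immunosubunits were among the 5 highest members, or the 5 lowest with the sign turned. Psmb8 had -1.66, -1.45 and -0.90 in HF-low-low and -1.65, -1.23 and -0.73 in HF-low-suf (lowest, median and highest). Psmb9 had -1.61, -1.45 and -0.94 against -1.58, -1.23 and -0.61, and Psmb10 had -1.59, -1.19 and -0.52 against -1.28, -1.07 and -0.33. The diets overlapped over most of their range for each, and the differences of 0.14 ± 0.18, 0.14 ± 0.18 and 0.17 ± 0.19 were not called (limma adjusted P = 1.0 for each). The highest liver for all 3 was HF-low-suf replicate 4, the one with the bright reference channel. Without it the differences were 0.03, 0.03 and 0.04, and within the first scan day, which does not hold that array, they were 0.03, -0.04 and -0.04, against 0.24, 0.33 and 0.37 within the second. The 95% interval of Psmb10 with all livers was -0.25 to 0.58.

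No other member was called in liver. The remaining high values were those of Psme3, at 0.18 ± 0.15, and Psmb1, at 0.12 ± 0.17, and the lowest were those of Psmd2 at -0.18 ± 0.17, Psmc1 at -0.15 ± 0.14, Psmd6 at -0.14 ± 0.17, Psme4 at -0.12 ± 0.12 and Psmd7 at -0.10 ± 0.15. The constitutive catalytic subunits Psmb5, Psmb6 and Psmb7 were at -0.00 ± 0.13, 0.05 ± 0.15 and 0.03 ± 0.15, and Psme1 and Psmf1 at 0.09 ± 0.15 and -0.07 ± 0.17. The mean log2 ratio of 4 adipose markers was 2.73 in HF-low-suf liver replicate 1 against at most -0.33 in the other livers, and that of 5 skeletal muscle markers was -2.29 in replicate 2 against at most -3.83. Without both of these livers Psmb8, Psmb9 and Psmb10 were at 0.13, 0.16 and 0.17.

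The diet difference in liver was not called different from that in colon for any member. With the mouse as a random block in limma, 0 of 42 members and 0% of all probes passed, and 0 members had an unadjusted P below 0.05 while 2636 probes had. Among the members well above background, the differences between tissues ran from -0.23 for Psmd11 to 0.22 for Psme3 and 0.20 for Psma1, and the lowest adjusted P of a member was 0.858. For Psmb9, the immunosubunit farthest from 0, the value was 0.17 with a 95% interval from -0.30 to 0.65.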

How the data were processed

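RNA of colon and liver of 12 mice was measured on 24 two-colour arrays, sample in Cy3 and pooled reference in Cy5, without a dye swap. The authors deposited the Feature Extraction 9.5.3.1 output of each array, with spot intensity and background intensity in both channels, and probe positions on mm7. From these, intensities were background-corrected by normexp (offset 50) and normalised within arrays by global loess in limma 3.58.1 (R 4.3.3). The study's methods name the loess, while the background correction was chosen here. Control spots and outlier spots had weight 0, outliers were left out, and spots of a probe were averaged, which gave 41174 probes. Values are log2 of Cy3 over Cy5. Models were fitted over all probes, with the 24 arrays for tissue and the 12 of a tissue for diet. The main tissue fit had no block for the mouse. Tissue calls used a Benjamini-Hochberg adjusted P below 0.05, and diet calls the rule of the study, an unadjusted P below 0.01 with a fold above 1.5. The scripts were tested on simulated data.

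The members and gene lists were chosen with earlier results of these data known. Genes were named by role (catalytic subunits and regulators) and as the 5 highest and 5 lowest members of each comparison among those well above background on at least 6 arrays, with the 3 highest and 3 lowest of each pathway list, of which some are not reported here. Same-numbered colons and livers of a diet come from the same mouse per the labels, and their deviations from group means correlated by -0.03 to 0.28 over 12 pairs. The replicate number is also the slide, which held 1 array of each group, and 3 slides were scanned on each of 2 days. P-values measure only the spread between these animals. Alternatives were other background corrections and normalisations, Cy3 alone, filters, probes, blocks, scan days and left-out arrays. Promoters came from RefSeq.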

Additional observations from a re-analysis of the deposited data

Results flagged for a closer look

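Of 116 groups of 6 samples examined, 6 held a sample far from the other 5, and chance marks about 1 in 20 groups. Psmd10 was at 0.84 in liver HF-low-low replicate 3, against -0.10 to 0.21 in the others of the group. Psmd6 was at -0.16 in colon HF-low-low replicate 1, against -0.97 to -0.71. Psmd9 was at 1.2 in liver HF-low-low replicate 6, an array of high median intensity (10.1), against 1.61 to 1.81. Psmb1 was at 0.03 in liver HF-low-suf replicate 1, the liver with adipose markers, against 0.55 to 0.74, and at -0.15 in HF-low-low replicate 1, the other liver on that slide. On liver HF-low-suf replicate 4, the array with a bright reference, Psmd9 was at 0.84 against 1.64 to 2.06, and Psmb8 minus Psmb5 was at -1.25 against -2.35 to -2.11. The part of array brightness, of the slide or of the adipose transcripts in these values was not tested.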

How the results depend on the processing

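The number of members called higher in liver was 34 to 37 and that called higher in colon was 3 whichever mouse was left out, with member medians of 0.56 to 0.62. The first count was 11 with median centring, 21 with the study's rule as the call and 23 within the first scan day, and the second was 1 with the study's rule. Under the study's rule, 11.2% of all probes and 20.4% of the well measured probes were called higher in liver. For colon these shares were 12.1% and 23.1%. The tissue median was 0.24 with median centring, and Psmb8 and Psmd10 then turned to -0.31 and -0.28, while Psmd10 was also -0.067 within the second scan day. With the mouse as a replicate block 36 members were higher in liver and 3 in colon, Psma2 being lost, and with the slide as a block 37 and 3. With the replicate block 0 members were called for diet in either tissue. Without each array in turn, 0 to 1 colon members were called for diet, and that 1 (without HF-low-low replicate 4, and within the first scan day) was Psma8, well above background in no colon.

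Values that were not called were counted as turned only where the sign changed and the value moved by more than its SE. For diet in colon, median centring moved the median to 0.15 and turned Psmb5 to 0.067, Psme1 to 0.13, Psme3 to 0.13, Psme4 to 0.12, Psma1 to 0.011, Psma7 to 0.025 and Psmc4 to 0.058. The next brightest probe gave 0.18 for Psme4 and -0.18 for Psmd11, and the second scan day -0.060 for Psmf1 and -0.053 for Psmd10. For diet in liver, the first scan day gave -0.043 for Psmb9 and -0.035 for Psmb10. The cause was not tested. Over 8 alternatives, the liver minus colon value was -0.79 to -0.50 for Psmb8 minus Psmb5, -2.76 to -2.16 for Psmb10 minus Psmb7 and -0.29 to 0.05 for Psmb9 minus Psmb6. Signal near background limits Psma8 and the dimmest probes of Psmc2, Psmd4, Psmd11, Psme4 and Psmf1.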
